A study of Mus musculus with 8 samples.

Results

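Capillary endothelial cells in which 9 marker genes of other or activated cells were all at 0, labelled quiescent capillary endothelium, made up 1991 of the 23996 cells that passed the quality limits in single-cell RNA profiles of mouse mesentery and epididymal fat. A cell entered the set if it had at least 500 UMIs (unique molecular identifiers, each standing for 1 captured RNA molecule), at least 300 genes and at most 10% mitochondrial UMIs. It also had to hold at least 1 UMI of at least 3 of the 6 capillary genes Gpihbp1, Cd300lg, Rgcc, Car4, Timp4 and Tcf15, and at least 1 UMI of the endothelial junction genes Pecam1 or Cdh5. Gja5 (arterial), Selp (venous), Prox1 (lymphatic), Ptprc (leukocyte), Adipoq (adipocyte), Nepn, Aplnr and Esm1 (sprouting capillary) and Cxcl9 (interferon response) all had to be at 0. These 17 genes chose the cells, so their levels are given as a description and were left out of every count of called genes.

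Capillary endothelium is the site where nutrients leave the blood. In fat and muscle it carries the lipase that frees fatty acids from circulating lipoproteins: Gpihbp1 anchors lipoprotein lipase to the luminal face, and the released fatty acids cross the cell with the help of the membrane protein Cd36 and the cytosolic binding proteins Fabp4 and Fabp5. Most capillary cells of an adult are quiescent, meaning that they neither divide nor sprout. Under growth signals some become tip cells, which lead new sprouts and express Esm1, Apln and basement membrane genes.

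The cells came from male ROSA26-eYFP+/+ Cdh5-CreERT2+ mice, so every group carried both the reporter and the Cre. Cdh5 drives the tamoxifen-dependent Cre in endothelial cells, and recombination turns on YFP there. Tamoxifen was fed for 2 weeks, beginning when the animals were 6 weeks old. At 8 weeks the diet became normal chow (5.8% fat) or high fat diet (HFD, 60% fat), kept up for 12 to 13 weeks. Mesentery or epididymal adipose of 6 mice was pooled in each library, YFP-bearing cells were sorted after digestion in the presence of Actinomycin D, and about 5000 cells were targeted. How the gate was drawn is not analysed here. There are 4 groups (mesentery on chow, adipose on chow, mesentery on HFD, adipose on HFD) and 2 libraries in each, replicates A and B, which the labels describe as independent repeats of the experiment. A library is 1 pool, so the spread between single mice was not measured.

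Replicate A stands apart from replicate B in these cells. Its libraries held 1352 to 2780 barcodes and gave 98 members in all, against 3189 to 6218 barcodes and 1893 members in replicate B. Summed over members, a library of replicate A had 25432 to 63275 UMIs and one of replicate B 1207653 to 1764057, so replicate B sets most values below. No member barcode occurred in more than 1 library. Levels below are CPM, the UMIs of a gene scaled to a total of 1000000 over the members of a library. Fos, an immediate early gene of the stress of dissociation, ran from 1140.3 to 2371 CPM in the members of replicate A and from 9.85 to 28.8 in those of replicate B. Members of replicate A also had lower levels of capillary genes that the rule did not use. In mesentery on chow these 10 genes summed to 11116 CPM in replicate A and to 48228 in replicate B. They carried more lymphatic transcripts as well, 767 to 7649 CPM over 6 markers against 179 to 1120.4 in replicate B. The Ccl21a row among these markers is 1 of several near-identical copies and is uncertain.

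The 6 genes of the rule were found in different shares of the members. Gpihbp1 was detected in 95.7% of members, Cd300lg in 82.8%, Rgcc in 81.9%, Tcf15 in 76.5%, Timp4 in 62.0% and Car4 in 54.9%. Of the members, 459 held exactly 3 of the 6 genes, 482 held 4, 571 held 5 and 479 held all 6. The count moved with depth: the median was 1634 UMIs per cell at 3 genes and 3507 UMIs at 6 genes. Just outside the threshold, 619 cells met every other condition with exactly 2 of the 6 genes. Their median was 1847 UMIs, close to that of the 459 cells just inside, and 186 of them came from replicate A, compared with 52 of the cells just inside. Over all 1991 members the median was 2436 UMIs and 1219 genes per cell. In cells with Ptprc and without Pecam1 or Cdh5, which should lack these genes, 3 or more of the 6 were found in 16 of 1079 cells (1.48%) at a median of 6141 UMIs. In all endothelial cells the share was 56.2% at a median of 3910 UMIs.

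The label "capillary endothelium, quiescent" was checked against genes outside the rule. Endothelial genes were widely detected: Egfl7 was detected in 1703 of 1991 members, Flt1 in 1518, Cldn5 in 1509 and Kdr, the main VEGF receptor, in 1368. Genes of cell division were rare. Mki67 was found in 7 members, Top2a in 15, Cdk1 in 15 and Ccnb1 in 1. Sprouting genes were not absent: Apln had a UMI in 33 members, Angpt2 in 104, Cxcr4 in 129 and the Notch ligand Dll4 in 443. The word quiescent therefore rests on few cells with division genes and on the 3 sprouting genes that the rule sets to 0. The counts of cells with division genes have no rate from other cells beside them. Genes of the cell cycle and of quiescence differed little from the sprouting-type capillary cells described below. Of 6 cell cycle genes tested, 1 was higher in members and 1 lower (median log2 difference 0.02). Of 15 genes of quiescence and shear, 1 was higher and 0 lower (median -0.02), where 4.15% of all genes were called. Set beside the Gja5 arterial cells described below, the lists did not go with the name. There 7 of 13 tip cell and sprouting genes were higher in members and 3 lower (median 0.95). Of the 15 quiescence and shear genes 3 were higher and 6 lower (median -0.12), where 18.9% of all genes were called.

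Transcripts of other cell types reached many members. At least 2 arterial markers occurred in 49.8% of members, at least 2 adipocyte markers in 28.5%, mural markers in 12.6%, venous markers in 6.03%, fibroblast markers in 3.06%, lymphatic markers in 2.16%, macrophage markers in 2.11% and erythroid markers in 0.854%. No member held 2 mesothelial or T cell markers, and 1 held 2 B cell markers. Among the defining genes, Cd4, Cd8a and Krt8 were at 0 in all members. The adipocyte share was tied to diet and replicate: it was 45.5% in mesentery and 66.8% in adipose on chow, and 11.9% and 4.32% on HFD, all in replicate B. Leaving out cells with at least 2 markers of mural, fibroblast, mesothelial, lymphatic, macrophage, T, B or erythroid cells kept 1639 members (82.3%). Arterial, venous and adipocyte markers were not used for that removal.

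**Figure D1:**
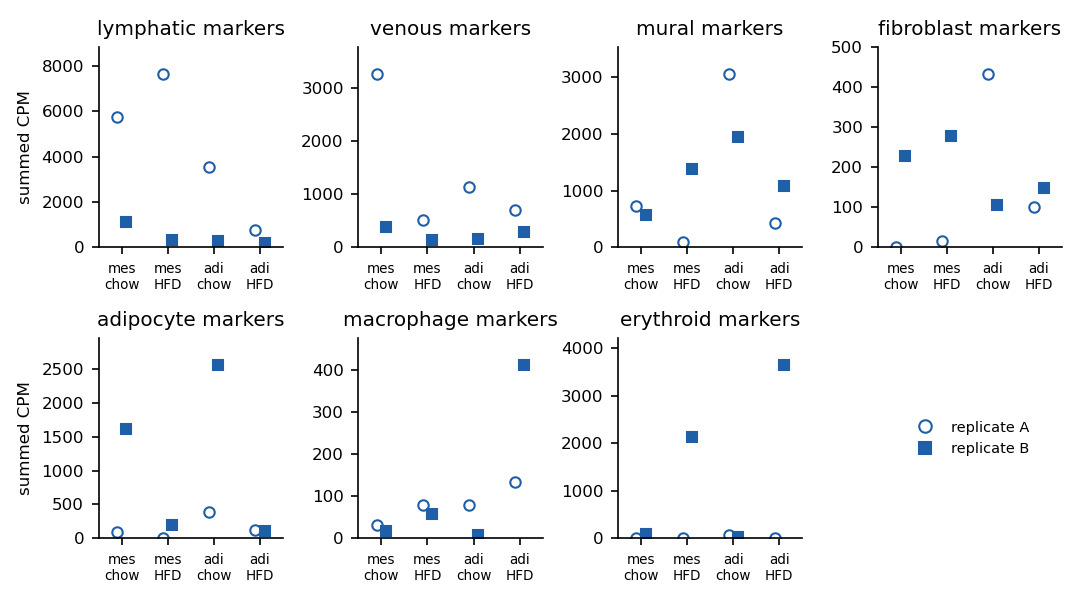
Summed level of markers of 7 other cell types in the capillary members, in CPM (linear axes from 0), for each library; mes is mesentery, adi is epididymal adipose, circles are replicate A and squares replicate B. Adipocyte markers reach 1617 and 2563 in the chow libraries of replicate B and lie at or under 393 in the other libraries, and lymphatic markers are higher in replicate A in every group.

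Members were a larger part of the endothelium on HFD in both tissues and both replicates, but the design is too small for a test to reach the threshold. In mesentery, members were 1.55% (95% exact Clopper-Pearson interval 0.95 to 2.39%, 20 of 1289 endothelial cells) on chow and 2.90% (1.78 to 4.44%, 20 of 690) on HFD in replicate A. In replicate B they were 9.78% (8.91 to 10.7%, 420 of 4295) on chow and 18.4% (16.9 to 19.9%, 480 of 2610) on HFD. Thus the share was higher on HFD in each replicate, while the replicates themselves differed more than the diets did.

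In adipose, members were 1.18% (0.645 to 1.97%, 14 of 1189) on chow and 4.94% (3.61 to 6.58%, 44 of 890) on HFD in replicate A. In replicate B they were 8.58% (7.82 to 9.38%, 437 of 5094) on chow and 16% (14.8 to 17.3%, 556 of 3474) on HFD. The intervals cover counting error only. The rule also sets Adipoq to 0, and adipocyte RNA differed between the diets. Adipocyte markers in members of replicate B summed to 1617 and 2563 CPM on chow and 196 and 109 on HFD (mesentery, adipose). The part of this condition in the shares was not tested. The share was higher on HFD in 4 of 4 pairs of the same tissue and replicate, by 5.29 percentage points on average. The exact two-sided permutation test over the 4 pairs gave p = 0.13, the smallest it can give, and 0.625 after Benjamini-Hochberg adjustment over 5 comparisons. The rise in replicate B was not particular to members. Capillary cells with Aplnr, Nepn or Esm1, otherwise as members, were 230 of 4295 endothelial cells on chow and 475 of 2610 on HFD in mesentery. In adipose they were 231 of 5094 and 456 of 3474. Replicate A had 13 of 1289 and 5 of 690 in mesentery, and 4 of 1189 and 21 of 890 in adipose.

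Compared without pairing, the exact permutation test of 2 against 2 libraries gave p = 0.667 for diet in mesentery, with 10.6% ± 11 on HFD and 5.67% ± 5.82 on chow (SD, n = 2 each). The exact test gave p = 0.667 for diet in adipose, with 10.5% ± 7.82 against 4.88% ± 5.23 (SD, n = 2 each). For mesentery against adipose the exact test gave p = 0.667 on chow and p = 1.0 on HFD, and the adjusted values over the 5 comparisons ran from 0.833 to 1.0. The smallest p that 2 against 2 libraries allow is 0.33. Because both the rule and its 9 genes at 0 depend on depth, cells were also thinned to 1000 UMIs. The shares then became 0.968% and 17.4% in mesentery on chow (replicates A and B), 2.47% and 34.7% in mesentery on HFD, 1.31% and 26.3% in adipose on chow, and 6.27% and 29.6% in adipose on HFD. HFD was again higher in each pair, whereas adipose on chow passed mesentery on chow in both replicates.

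**Figure D2:**
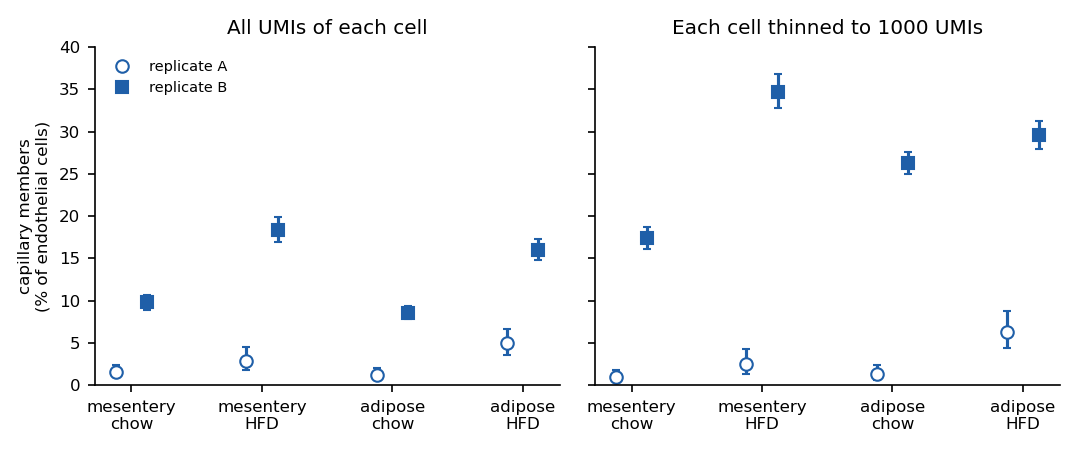
Capillary members as a percentage of endothelial cells in each library, from all UMIs (left) and after thinning each cell to 1000 UMIs (right), with exact 95% binomial intervals; circles are replicate A and squares replicate B. Each HFD library lies above the chow library of its tissue and replicate in both panels.

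How the members differ from sprouting-type capillary cells was described next. The other cells, 1435 in number, met the same capillary conditions but held at least 1 UMI of Aplnr, Nepn or Esm1. Both sets were cut from the same counts, so what follows describes the cut and tests nothing. In 5 libraries with at least 20 cells of each kind (the 4 of replicate B and adipose on HFD replicate A), edgeR's quasi-likelihood fit with library as a block gave 192 genes higher and 173 lower in members at a Benjamini-Hochberg adjusted p under 0.05, which is 4.15% of 8794 genes. The sprouting-type cells were deeper, with a median of 4066 UMIs. After thinning every cell to 1000 UMIs the fit gave 6 genes, and without the library block 1.

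From all UMIs, members had less basement membrane and sprouting RNA, but after thinning to equal depth none of these genes passed. Of 16 tip cell and sprouting genes, 9 were lower and 0 higher, with a median log2 difference of -0.53. Of 13 basement membrane genes 8 were lower, with a median of -0.49. The lists overlap: Col4a1, Col4a2, Lamb1 and Nid2 were counted as lower in both. The median over all genes was 0. After thinning to 1000 UMIs, 0 of 11 sprouting genes (median -0.07) and 0 of 12 basement membrane genes (median -0.09) passed. Col15a1, a collagen of the outer basement membrane, stood at 55.5, 11.4, 45.9 and 75.0 CPM in the members of replicate B (mesentery on chow, adipose on chow, mesentery on HFD, adipose on HFD). In the sprouting-type cells it stood at 189.6, 108, 203 and 139, higher in each of these libraries, with a log2 difference of -1.76 ± 0.16 (SE) and of -0.44 after thinning. The differences were -0.60 ± 0.07 for Col4a1, a chain of collagen IV (-0.07 after thinning), -0.82 ± 0.09 for the sialomucin Cd34, -1.46 ± 0.36 for the placental growth factor gene Pgf and -1.40 ± 0.23 for the ligand Bmp4. The water channel Aqp1 differed by -1.24 ± 0.10 (-0.62 after thinning, still called) and the imprinted gene Mest by -1.64 ± 0.19.

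Arterial genes leaned the other way. Of 8 arterial markers, 6 were higher in members and 0 lower, with a median log2 difference of 0.48. Bmx, a kinase of arterial endothelium, stood 0.98 ± 0.20 (SE) higher and the arterial connexin Gja4 0.61 ± 0.15 higher. After thinning 0 of 7 arterial markers passed (median 0.25), and Gja4 was at -0.03. Transcripts of other cell types moved with this comparison. In members 8 of 8 mural markers were higher, Rgs5 by 0.97 ± 0.11, as were 2 of 3 lymphatic markers (Mmrn1 by 3.94), 3 of 6 adipocyte markers (Cfd by 0.90), 2 of 4 fibroblast markers (Col1a2 by 1.36) and the macrophage gene Lyz2, by 0.56. Their part in the differences was not tested. Fatty acid genes differed little. Of 12 uptake and transport genes, 2 were lower in members, Fabp5 by 0.37 on the log2 scale (SE 0.08) and the HDL receptor gene Scarb1 by 0.49 (SE 0.09), and 0 were higher.

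Against arterial cells the members were rich in genes of fatty acid handling. The arterial cells, 872 in number, held Gja5, and 6 libraries had at least 20 cells of each kind. This again describes cells chosen on their counts. The edgeR quasi-likelihood fit gave 678 genes higher and 855 lower in members, or 18.9% of 8097 genes, at a Benjamini-Hochberg adjusted p under 0.05, and 850 without the library block. Of 12 fatty acid uptake and transport genes, 8 were higher in members and 2 lower, with a median log2 difference of 1.62 beside 0.01 over all genes. Adipocyte markers moved with this comparison: 4 of 4 tested were higher in members, with a median of 2.68 (Car3 2.75, Retn 2.70, Cidec 2.65, Acsl1 1.64). Their summed level in replicate B was 1617, 2563, 196 and 109 CPM in members and 163, 469, 37.7 and 57.9 in arterial cells (groups in the order given above). Of 4 lymphatic markers 3 were higher, of 2 fibroblast markers 2, and the macrophage gene Lyz2 was higher by 1.76. The part of RNA from these cell types in the fatty acid genes was not tested.

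Lpl, the lipase that capillaries present to the blood, stood at 344, 533, 400.2 and 571 CPM in the members of replicate B (groups in the order given above) and at 36.6, 114, 94.1 and 150.1 in arterial cells. Its log2 difference was 2.42 ± 0.18 (SE). Fabp5 stood at 1008, 1171, 2172 and 2851 in members and at 179, 337, 588 and 481 in arterial cells, a difference of 2.26 ± 0.15. Both genes were thus higher in the members of every one of these libraries without overlap. The differences were 1.74 ± 0.16 for Fabp4, 1.60 ± 0.19 for Cd36, 2.04 ± 0.20 for the glycerol channel Aqp7 and 1.88 ± 0.16 for Scarb1.

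Among transcription factors of lipid transport, Pparg stood 1.64 ± 0.19 (SE), Meox2 0.53 ± 0.12 and Meox1 2.65 ± 0.28 higher on the log2 scale, and Foxo1 -0.57 ± 0.15. Of 9 capillary markers outside the rule 8 were higher in members, among them Aqp1 by 3.96 ± 0.24 and Kdr by 2.10 ± 0.22. Cd36, Fabp4 and Aqp7 are among these 8 and were counted with the fatty acid genes as well. All 8 arterial markers tested were lower, with Gja4 at -2.40 ± 0.16, Bmx at -3.39 ± 0.15, Hey1 at -1.14 ± 0.13 and Sox17 at -0.51 ± 0.14. Of 11 Notch genes 9 were lower, for example the ligand Jag1 at -1.95 ± 0.16. The nitric oxide synthase Nos3 was at -1.37 ± 0.17, the shear-responsive factor Klf2 at -0.58 ± 0.14, von Willebrand factor Vwf at -3.58 ± 0.24 and the calcification inhibitor Mgp at -4.90 ± 0.37. Members still held some arterial RNA: Sox17 ran from 287 to 400.2 CPM in members of replicate B and from 427 to 553 in arterial cells.

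**Figure D3:**
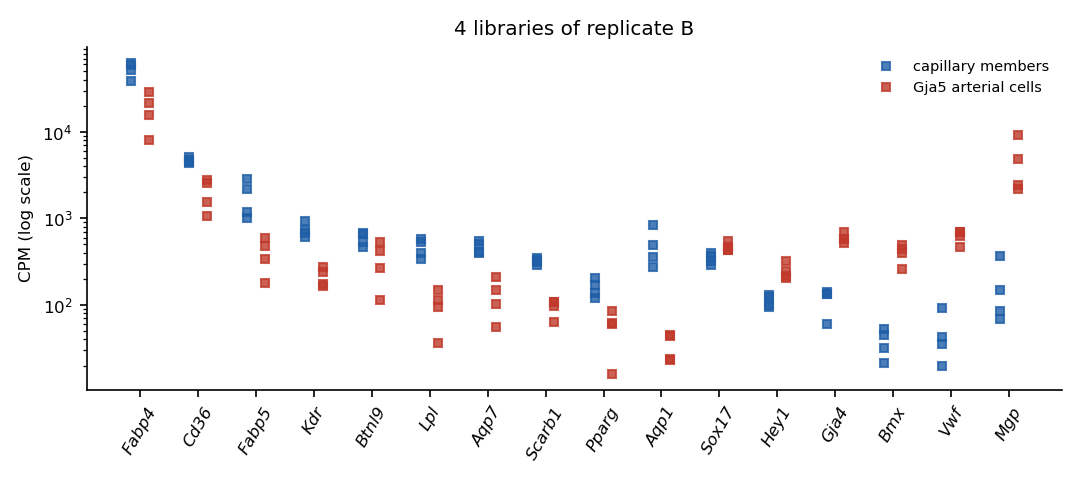
Level of 16 genes in CPM on a log axis, for capillary members (blue) and Gja5 arterial cells (red); each point is 1 of the 4 libraries of replicate B. Lpl, Fabp5, Cd36, Kdr and Aqp1 lie higher in members without overlap, and Gja4, Bmx, Vwf and Mgp lie higher in arterial cells without overlap.

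The next question was what HFD changes inside these capillary cells. Counts of all members of a library were summed and tested across the 8 libraries. In edgeR's quasi-likelihood fit without a block, HFD against chow called 1 gene (0.0114% of 8760, at a Benjamini-Hochberg adjusted p under 0.05) in mesentery, 0 (0%) in adipose and 1 (0.0114%) averaged over the tissues. At an unadjusted p under 0.05 there were 106, 69 and 109 genes, and DESeq2 without the block called 0, 0 and 1. With the replicate letter as a block the same fit called 71 genes in mesentery (23 higher, 48 lower, 0.811%), 49 in adipose (27 higher, 22 lower, 0.559%) and 75 on average (31 higher, 44 lower, 0.856%). DESeq2 with the block called 3, 2 and 4. These blocked counts fell to 2, 13 and 1 without mesentery on HFD replicate B, to 17, 3 and 5 without adipose on chow replicate B, to 14, 20 and 19 without mesentery on chow replicate B and to 13, 5 and 12 without adipose on HFD replicate B. Adjusted p-values below come from the edgeR fit with the replicate block, with the value of the fit without it beside them.

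Of the genes for lipid handling listed for this work, Fabp5 had the largest log2 change among those called. In mesentery Fabp5 stood at 319.9 and 1008 CPM on chow (replicates A and B) and at 806 and 2172 on HFD. In adipose it stood at 472 and 1171 on chow and at 1600.3 and 2851 on HFD. It was higher on HFD in 4 of 4 pairs, though the groups overlap across replicates. The log2 change averaged over tissues was 1.41 ± 0.23 (SE, edgeR, adjusted p = 2.4e-07 with the block, 1 without it). In mesentery it was 1.17 ± 0.32 (edgeR, adjusted p = 0.027) and in adipose 1.64 ± 0.32 (edgeR, adjusted p = 0.00016). The average was not called without mesentery on HFD replicate B (edgeR, adjusted p = 0.054) or when each cell counted at most once per gene (edgeR, adjusted p = 0.39), and the blocked alternatives ran from 5.5e-10 to 0.39. In adipose it was not called without adipose on chow replicate B, and in mesentery 4 single libraries (both replicates of each diet there) each ended the call. With members carrying markers of other cell types left out the average was called, while the change in mesentery, 1.25, was not (edgeR, adjusted p = 0.069). The change in mesentery was called in 8 of 18 blocked alternatives and not in DESeq2, after thinning or with 1 count per cell. Fabp5 also differed between diets in cells with Ptprc, at 52.3 and 78.2 CPM on chow and 816 and 892 on HFD in replicate B (mesentery, adipose). The part of those cells' RNA in the members' difference was not tested. In the arterial cells of replicate B, with levels given above, Fabp5 was higher on HFD in mesentery and in adipose. The difference in direction was thus seen outside the members as well, but it was not tested there.

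Plin2, which coats lipid droplets, and Ucp2, a carrier of the inner mitochondrial membrane, followed with smaller changes. Plin2 stood at 128 and 142 CPM in mesentery on chow (replicates A and B), 158 and 286 in mesentery on HFD, 78.6 and 222 in adipose on chow, and 517 and 381 in adipose on HFD. Its mean log2 change over tissues was 1.07 ± 0.27 (edgeR, adjusted p = 0.011 with the block, 1 without it). Ucp2 stood at 16 and 164 in mesentery on chow, 158 and 290.2 in mesentery on HFD, 78.6 and 216 in adipose on chow, and 283 and 361 in adipose on HFD, with a mean log2 change of 1.08 ± 0.28 (edgeR, adjusted p = 0.019 with the block, 1 without it). Both genes were higher on HFD in 4 of 4 pairs. The pairs of replicate A come from member totals of 25432 to 63275 UMIs per library. A level there such as the 16 CPM of Ucp2 thus rests on very few UMIs. With the members that carry markers of other cell types left out neither gene passed. Neither passed without adipose on chow, mesentery on HFD or adipose on HFD of replicate B, nor without adipose on HFD replicate A (adjusted p up to 1 for Plin2 and 0.97 for Ucp2). Plin2 was also not called without mesentery on chow replicate B, and Ucp2 not without mesentery on chow or HFD replicate A. In cells with Ptprc of replicate B, Plin2 stood at 38.9 and 135 on chow and at 985 and 1288 on HFD (mesentery, adipose), whose part in the members' values was not tested.

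Most of the lipid programme did not pass. Of 13 fatty acid uptake and transport genes tested, 1 rose on HFD and 0 fell in the blocked average, with a median log2 change of 0.37 beside 0.02 over all genes. Of 14 genes of lipid droplets, lipolysis and oxidation, 2 rose and 0 fell (median 0.12), and of 8 transcription factors of lipid transport 0 passed (median 0.05). Cd36 passed in adipose alone, with a log2 change of 1.18 ± 0.32 (edgeR, adjusted p = 0.04 with the block, 1 without it). It stood there at 786 and 4485 CPM on chow (replicates A and B) and at 2734 and 5173 on HFD, so the diets differ far more in replicate A than in replicate B. It was called in 5 of 18 blocked alternatives, and not without any library but mesentery on HFD replicate A and adipose on HFD replicate B (adjusted p up to 1). In mesentery the Cd36 change was 0.36 ± 0.30 (edgeR, adjusted p = 1), and the difference between the tissues, -0.82 ± 0.43, had an adjusted p of 1 in edgeR. Fabp4 had a mean log2 change of 0.71 ± 0.22 (edgeR, adjusted p = 0.1).

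Igfbp3, which binds insulin-like growth factors in plasma and tissue, was lower on HFD. It stood at 432 and 349 CPM in mesentery on chow (replicates A and B), 158 and 114 in mesentery on HFD, 236 and 302 in adipose on chow, and 16.7 and 63.8 in adipose on HFD. Every chow library lies above every HFD library. The mean log2 change was -1.92 ± 0.28 (edgeR, adjusted p = 4.3e-09 with the block, 0.2 without it). Without adipose on chow replicate B or mesentery on HFD replicate B it was not called (edgeR, adjusted p = 0.14 and 0.083). Igfbp3 was the 1 called gene among 13 of insulin and IGF signalling, whose median was -0.22. In cells with Ptprc it lay between 0 and 3.16 CPM.

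Cyp1a1, the xenobiotic-metabolising enzyme induced through the aryl hydrocarbon receptor, was the gene the fit without a block called on average. It had a UMI in 83 of 420 members in mesentery on chow replicate B and in 29 of 437 in adipose on chow replicate B, against 1 of 480 and 0 of 556 on HFD. The levels were 133 and 35.6 CPM on chow and 1.13 and 0 on HFD in replicate B. In replicate A the gene was seen in 1 cell, of mesentery on chow. Summed over both replicates, mesentery on chow was 117-fold above mesentery on HFD (95% counting interval 31.7 to 970). Adipose on chow was at least 19.3-fold higher than adipose on HFD, set against a floor of 3 UMIs over the group. For the average edgeR gave an adjusted p of 5.9e-18 with the block and 0.034 without it, and DESeq2 with the block gave 1.

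Cells with Ptprc had 0 Cyp1a1 UMIs in all libraries, while cells with Prox1, the lymphatic factor, had 26.4 and 37.7 CPM on chow and 0 on HFD in replicate B (mesentery, adipose). Arterial cells of replicate B had 21.6 and 21.0 on chow and 0 on HFD. The difference in direction was thus seen outside the members as well, but it was not tested there. Of other genes under the same receptor, chosen after the value of Cyp1a1 was seen, Tiparp changed by -0.84 ± 0.41 and Nqo1 by -0.72 ± 0.52 (edgeR, adjusted p = 1 each).

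Genes of quiescence and shear were mostly flat. Of 15, Klf2 alone rose, from 1503 and 599 CPM to 2718 and 643 in mesentery and from 668 and 404 to 2484 and 519 in adipose (replicates A and B). Its mean log2 change was 0.77 ± 0.22 (edgeR, adjusted p = 0.042 with the block, 1 without it), and the list's median was 0.09. Klf2 was called in 4 of 18 blocked alternatives and, among those leaving out a library, only without mesentery on chow replicate B (adjusted p up to 1). The difference between diets was larger in replicate A, where Fos was high as well. Fos was itself called higher on HFD with the block, on average and in adipose, as the 1 called of 13 immediate early genes. In mesentery 0 of the 13 passed. The part of dissociation stress in the Klf2 change was not tested. Of 16 tip cell and sprouting genes 0 passed on average, with a median of -0.04. Of 13 basement membrane genes the matricellular gene Sparc alone rose, by 0.75 ± 0.21 (edgeR, adjusted p = 0.042 with the block, 1 without it). It was not called when any single library was left out (adjusted p up to 0.98). Of 20 nuclear oxidative phosphorylation genes and 14 glycolysis genes, 0 passed. Of 20 interferon response genes 1 fell, Ifi27l2a, and of 11 MHC class I genes 0 passed.

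**Figure D4:**
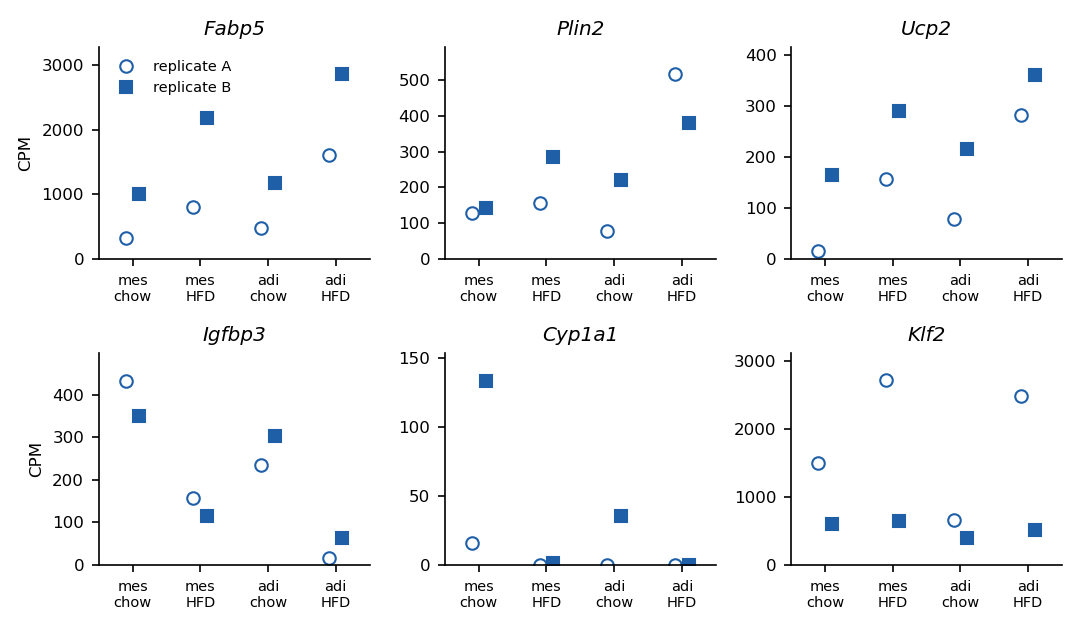
Level of 6 genes in capillary members in CPM (linear axes from 0), for each library; mes is mesentery, adi is epididymal adipose, circles are replicate A and squares replicate B. Fabp5, Plin2 and Ucp2 are higher and Igfbp3 and Cyp1a1 lower on HFD within each tissue and replicate where the gene was detected, and Klf2 differs mostly between the replicates.

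Many of the larger diet differences in the members belong to genes of other cell types. Of 8 adipocyte markers 6 fell on HFD and 0 rose in the blocked average. Cfd, the adipocyte complement factor adipsin, stood at 702 and 798 CPM in mesentery and adipose on chow of replicate B and at 10.2 and 11.9 on HFD. Replicate A had 157 in adipose on chow and 0 in its other libraries. The log2 change of Cfd was -6.04 ± 0.39 (edgeR, adjusted p = 4.3e-50 with the block, 0.054 without it). It was not called in DESeq2 or without mesentery on chow or HFD of replicate B (adjusted p up to 1). In cells with Ptprc, Cfd ran the same way in replicate B, from 102 and 35.6 on chow to 0.496 and 0.456 on HFD. The part of adipocyte RNA in the members' other differences was not tested. Phgdh, the first enzyme of serine synthesis, fell in adipose by 4.80 on the log2 scale (edgeR, adjusted p = 0.0076 with the block, 0.98 without it). It stood at 39.3 and 21.2 on chow and at 0 and 0.625 on HFD (replicates A and B).

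Macrophage transcripts went the other way: 4 of 5 markers tested rose on HFD and 0 fell in the blocked average. In adipose 4 of the 5 rose, and in mesentery 0 passed. Lyz2, macrophage lysozyme, stood at 0 and 2.27 CPM in adipose on chow and at 16.7 and 195 in adipose on HFD (replicates A and B), found there in 1 of 44 and 78 of 556 members on HFD. Its log2 change in adipose was 6.40 ± 0.74 (edgeR, adjusted p = 1.4e-14 with the block, 0.47 without it). C1qb changed by 6.01 ± 0.94 there (edgeR, adjusted p = 1.3e-07 with the block, 0.43 without it). Cells with Ptprc held 7297 CPM of Lyz2 in adipose on chow and 13441 in adipose on HFD of replicate B. Lyz2 was not called without adipose on chow replicate B (edgeR, adjusted p = 0.9). Ccl2, a chemokine for monocytes, rose by 4.99 ± 0.70 (edgeR, adjusted p = 9.3e-10 with the block, 0.054 without it), but 1 cell held 35.3% of all its UMIs, and it was not called when each cell counted at most once or without adipose on chow, mesentery on HFD or adipose on HFD of replicate B (adjusted p up to 0.71). All 3 erythroid markers tested rose in the blocked average, and Hba-a1 had a UMI in 33 members, of which 1 held 30.2% of its UMIs. The rise was in replicate B, where erythroid markers summed to 88.6 and 22.7 CPM on chow and 2127 and 3654 on HFD (mesentery, adipose). Replicate A had 0 and 78.6 on chow and 0 in each HFD library.

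Mesenteric and adipose capillaries were then compared. Without a block, edgeR called 1 gene on chow (0.0114%), 0 on HFD (0%) and 2 on average (0.0228%), with 144, 47 and 133 genes at an unadjusted p under 0.05, while DESeq2 called 0, 0 and 1. With the replicate block it called 77 on chow (59 higher in mesentery, 18 lower, 0.879%), 22 on HFD (8 higher, 14 lower, 0.251%) and 49 on average (34 higher, 15 lower, 0.559%), and DESeq2 with the block called 9, 1 and 9. The 77 fell to 15 or fewer without adipose on HFD replicate B (15), adipose on chow replicate B (12) or mesentery on HFD replicate B (9), and to 35 without mesentery on chow replicate B. The 49 fell to 16 to 18 without any of the first 3 or mesentery on HFD replicate A. The 22 fell to 3 to 6 without any of the same 3 libraries of replicate B, to 11 without mesentery on chow replicate B and to 14 without mesentery on HFD replicate A.

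Nkx2-3, a homeobox factor of intestinal and splenic vessels, had UMIs in mesenteric members and in no adipose member. It stood at 16 and 46.4 CPM in mesentery on chow (replicates A and B) and at 158 and 33.4 in mesentery on HFD. It was at 0 in all 4 adipose libraries. Set against a floor of 3 UMIs over the group, mesentery was at least 20.1-fold higher on chow and at least 20.9-fold higher on HFD. For the average edgeR gave an adjusted p of 3.4e-13 with the block and 0.025 without it. It was called in 13 of 17 blocked alternatives and not in DESeq2 or without mesentery on chow, adipose on chow or adipose on HFD of replicate B (adjusted p up to 1). Of 11 positional homeobox genes it was the 1 called. The UMIs came from 75 members. They were 1 of 20 and 36 of 420 on chow and 8 of 20 and 30 of 480 on HFD (replicates A and B). Nkx2-3 was not particular to these capillary cells: against the Gja5 arterial cells its log2 difference was -1.85 ± 0.24 (SE), lower in members.

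Plvap, which forms the diaphragms of fenestrae and caveolae, was higher in mesentery on average over the diets. In mesentery it stood at 1647 and 773 CPM on chow (replicates A and B) and at 1359 and 376 on HFD. In adipose it stood at 511 and 71.2 on chow and at 183 and 233 on HFD. The log2 difference, mesentery minus adipose, averaged 2.17 ± 0.24 (edgeR, adjusted p = 3.1e-15 with the block, 0.82 without it). The average was called in 18 of 18 alternatives with the block, at adjusted p-values from 2.4e-16 to 0.0053, and mesentery was higher in 4 of 4 pairs. On chow the difference was 3.00 ± 0.37 (edgeR, adjusted p = 1.4e-12 with the block, 1 without it) and on HFD 1.34 ± 0.32 (edgeR, adjusted p = 0.018 with the block, 1 without it). The difference on chow was lost without adipose on chow replicate B or after thinning (adjusted p up to 0.22). That on HFD was lost in 10 of 18 blocked alternatives (adjusted p up to 1): without adipose on chow or mesentery on HFD of replicate B, without mesentery or adipose on HFD of replicate A, in DESeq2 and limma-voom, after thinning, with 1 count per cell, and with at least 2 or at least 4 capillary genes. The interaction of -1.66 ± 0.48 did not pass (edgeR, adjusted p = 0.18). Plvap was the 1 called gene of 8 of caveolae and fenestral diaphragms, whose median was -0.02 beside 0.03 over all genes.

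Emcn, a sialomucin of capillary and venous endothelium, was higher in mesentery as well. It stood at 1119.6 and 759 CPM on chow and 822 and 437 on HFD in mesentery (replicates A and B), and at 472 and 298 on chow and 267 and 326 on HFD in adipose. The log2 difference averaged 1.13 ± 0.23 (edgeR, adjusted p = 0.00079 with the block, 1 without it). It was called in 12 of 18 blocked alternatives, and not in DESeq2, after thinning or with at least 2 capillary genes. Nor was it called without adipose on chow replicate B, mesentery on HFD replicate A or adipose on HFD replicate A. Among genes with lower counts, the lysophospholipase Enpp2 (autotaxin) differed by 2.68 ± 0.31, the retinoic acid hydroxylase Cyp26b1 by 3.69 ± 0.59, the forkhead factor Foxf1 by 3.25 ± 0.68, and the receptor partner Ramp3 by 3.90 ± 0.96. Their adjusted p-values in edgeR with the block were 2.9e-14, 4.2e-07, 0.00079 and 0.014, and without it 0.17, 0.6, 1 and 1. Enpp2 was not called after thinning, Foxf1 not in DESeq2 or after thinning, and Cyp26b1 not in DESeq2 or with at least 2 capillary genes. Ramp3 was not called in any of these 3 alternatives, with 1 count per cell, or without mesentery or adipose on HFD of replicate A. The leptin receptor Lepr, at 48.0 and 25.7 CPM in mesentery on chow, was at 0 in adipose on chow, at least 12.0-fold lower.

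Genes of lymphatic cells moved with the tissue. Of 6 lymphatic markers 4 were called higher in mesentery and 0 lower, among them the hyaluronan receptor Lyve1 by 4.0 ± 0.36 (edgeR, adjusted p = 2.8e-24 with the block, 0.84 without it). Lyve1 was found in 31 members, and 1 cell held 32.8% of its UMIs. It was not called when each cell counted at most once per gene. Glycam1, a mucin of high endothelial venules, was called without the block too (edgeR, adjusted p = 0.025 on average), yet all its UMIs came from 22 mesenteric members and 1 cell held 38.1% of them. Their part in the differences of Plvap and Emcn was not tested. With members carrying markers of other cell types left out, Plvap and Emcn were both still called, but that removal did not use venous markers. Of 6 venous markers tested with the block, 3 were called higher in mesentery on chow (Vcam1, Lrg1 and Icam1) and 0 lower. On HFD 0 were called higher and 1 lower, and averaged over the diets 0 passed. The part of venous RNA in the differences of Plvap and Emcn was not tested.

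Fewer genes were higher in adipose. Fabp4 stood at 6109.8 and 39078 CPM in mesentery on chow (replicates A and B), 11110.2 and 52415 in mesentery on HFD, 17458 and 58590.3 in adipose on chow, and 33606 and 63046 in adipose on HFD. Adipose was higher in 4 of 4 pairs, with a mesentery minus adipose log2 difference of -0.92 ± 0.22 (edgeR, adjusted p = 0.0067 with the block, 1 without it). The tight junction gene Cldn5 differed by -0.97 ± 0.21 (edgeR, adjusted p = 0.0017 with the block, 1 without it). Mgp differed by -1.81 ± 0.27 (edgeR, adjusted p = 2.3e-08 with the block, 0.6 without it). Mgp was higher in adipose in 4 of 4 pairs, as the levels of 159.9 and 86.1 in mesentery against 944 and 372 in adipose on chow show, but it was not called after thinning or with members carrying markers of other cell types left out. Fabp4 and Cldn5 were not called without mesentery on chow replicate A, mesentery on HFD replicate A, adipose on HFD replicate A or adipose on chow replicate B, and Fabp4 also not without adipose on chow replicate A (adjusted p up to 1 for both). Fabp4 was the 1 called gene of 13 for fatty acid uptake and transport, whose median was -0.19.

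**Figure D5:**
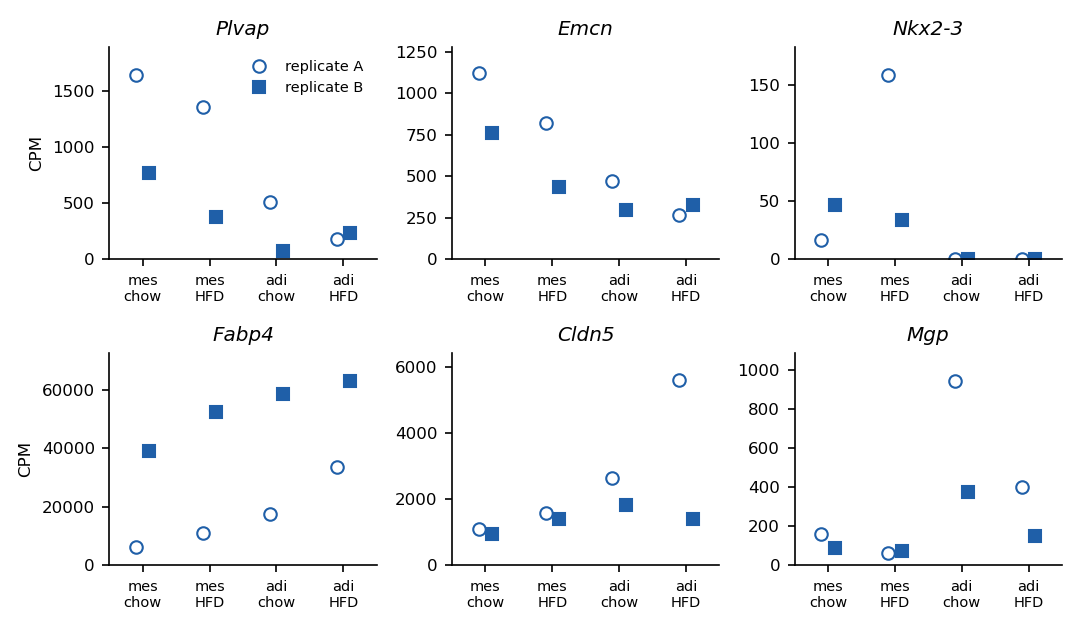
Level of 6 genes in capillary members in CPM (linear axes from 0), for each library; mes is mesentery, adi is epididymal adipose, circles are replicate A and squares replicate B. Nkx2-3 is at 0 in the 4 adipose libraries, Plvap is higher in mesentery within each diet and replicate, and Fabp4 and Mgp are higher in adipose within each diet and replicate.

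Whether the diet acted differently in the tissues was asked with the interaction. Without the block edgeR called 0 genes (0%), with 47 at an unadjusted p under 0.05 and 0 in DESeq2. With it 17 were called (4 higher, 13 lower in mesentery than in adipose, 0.194%), 0 without adipose on HFD replicate B, 1 without mesentery on HFD replicate B, 7 without adipose on chow replicate B and 10 without mesentery on chow replicate B. DESeq2 with the block called 2. Clu, a secreted chaperone found in arterial endothelium, was among the 17. It fell in mesentery by 2.81 on the log2 scale (SE 0.36, edgeR, adjusted p = 3.9e-12 with the block, 1 without it), from 1727 and 494 CPM on chow to 348 and 56.7 on HFD (replicates A and B). In adipose it stood at 275 and 62.1 on chow and at 233 and 131 on HFD. It was not called in mesentery without mesentery on HFD replicate B (adjusted p up to 1), after thinning or with at least 4 capillary genes required. Cyp26b1 fell in mesentery as well, from 16 and 147 on chow to 0 and 13.0 on HFD, a log2 change of -3.48 ± 0.64 (edgeR, adjusted p = 3e-05 with the block, 1 without it). DESeq2 with the block did not call this change.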

How the data were processed

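For 8 libraries the authors deposited matrices of whole-number UMI counts. Per the file headers, replicate A carries software version 3.0.2 and replicate B Cell Ranger 5.0.0. Per the submitters' processing notes, mm10 and Seurat 4.3.0 were used. The 30406 gene identifiers in both feature lists were kept. Members and gene lists were chosen with earlier results of these data known.

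Member counts were summed per library and tested with edgeR 4.0.16 (quasi-likelihood, TMM, filterByExpr, 1 mean per group) on R 4.3.3. Calls used Benjamini-Hochberg adjustment over 8760 genes, with a threshold of 0.05. The blocked fit shared 1 estimate of the spread among all genes (infinite prior degrees of freedom). The replicate letters pair the samples, since the labels call them repeats of 1 experiment. Deviations of same-letter libraries correlated at 0.18 to 0.29 over 6 pairs of groups. With 2 pools per group, p-values can measure only the spread between pools. In the blocked fit this is the shared estimate, so a gene's own spread between its pools has no weight in its p-value. Levels are CPM from summed member UMIs, with no TMM factor.

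Genes were named from the lists and, per comparison, up to 8 per direction with the largest change among called genes with at least 20 counts and the same direction in both replicates. Against other cells the rule took 10 per direction with at least 100 counts. Genes outside it, such as Tiparp, Nqo1 and Hba-a1, were chosen after their values were seen. Doublets were kept; Scrublet (scanpy 1.11.5) removal was an alternative, as were DESeq2 1.42.0, limma-voom (limma 3.58.1), thinning to 1000 UMIs, other gene minimums and leaving out each library. Some genes are not reported here. The scripts were tested on simulated data.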

Additional observations from a re-analysis of the deposited data

Results flagged for a closer look

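For 11 genes named here, the diet effect differed between the tissues by the interaction test of edgeR with the replicate block. None was called without the block. The values are log2 differences, mesentery minus adipose, of the change on HFD.

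The differences for contractile and mural genes were 4.63 for Acta2, 3.30 for Tpm2, 3.01 for Aspn and 2.70 for Myl9. Their direction is not stable: without mesentery on HFD replicate B, Tpm2 was at -3.95, Aspn at -3.76 and Myl9 at -6.10. The Acta2 call was kept in 9 of 16 blocked alternatives. In adipose on chow replicate A the 2438 CPM of Acta2 came from 2 of 14 members. With members carrying markers of other cell types left out, Myl9 was at -0.87.

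Genes of antigen presentation and macrophages were lower: H2-Aa at -5.83, Cd74 at -4.56 and Lyz2 at -4.74. The secreted matrix gene Tgfbi was at -11.49, fitted against groups at 0 and so no bound, Lrg1 at -5.69, Clca3a1 at -5.10 and Clu at -3.65. H2-Aa, Lyz2, Tgfbi and Clca3a1 were not called with members carrying markers of other cell types left out. Lrg1 in mesentery stood at 1919 and 126 CPM on chow and at 0 and 18.1 on HFD (replicates A and B), and the 1919 came from 3 of 20 members.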

How the results depend on the processing

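With 98 members in replicate A, its depth limits every comparison. Of 303 alternatives to the counts and shares, 146 stayed the same, 150 moved and 7 turned direction. Counts of called genes are given in the order diet in mesentery, diet in adipose, diet on average, tissue on chow, tissue on HFD, tissue on average and interaction. The pairing of replicates as a replicate block took 1, 0, 1, 1, 0, 2 and 0 to 71, 49, 75, 77, 22, 49 and 17. Without the block, no filter on low counts gave 37, 24, 48, 36, 8, 30 and 6, at least 4 of 6 capillary genes 13, 19, 20, 18, 2, 23 and 3, and thinning 14, 17, 40, 2, 0, 5 and 0. Removing doublets gave 0 for diet in mesentery and on average and for tissue on average. DESeq2 gave 0 for diet in mesentery and tissue on chow and 1 for tissue on average, and at least 2 of 6 genes gave 0, 0 and 1 for diet in mesentery, diet on average and tissue on average.

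With the replicate block, DESeq2 called 3, 2, 4, 9, 1, 9 and 2. Thinning gave 28 for diet in mesentery, 9, 8 and 14 for the tissue comparisons and 0 for the interaction. At least 4 genes gave 44 and 43 for diet in mesentery and on average, 12 for tissue on HFD and 6 for the interaction, and at least 2 genes gave 27 for diet in adipose, 1 for tissue on HFD and 4 for the interaction. Removing doublets gave 11 for both tissue on HFD and the interaction. Alternatives added after seeing the data were members with markers of other cell types left out (30, 23, 34, 44, 4 and, for the interaction, 7), 1 count per cell and gene (101 for diet in adipose, 146 for diet and 104 for tissue on average), a robust prior and limma-voom (14 for tissue on HFD, 10 for the interaction).

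Leaving out single libraries, without the block, gave 0 to 55, 0 to 33, 0 to 59, 0 to 35, 0 to 15, 0 to 42 and 0 to 20. With the block it gave 2 to 85, 3 to 62, 1 to 92, 9 to 75, 3 to 32, 16 to 52 and 0 to 18. Against sprouting-type cells 365 genes became 1 without the library block, 163 in DESeq2, 6 after thinning and 148 to 368 without single libraries. Against arterial cells 1533 became 850, 531 after thinning and 1067 to 1750. Called genes of DESeq2 split otherwise than those of edgeR: 0 higher and 3 lower for diet in mesentery, 2 and 0 for diet in adipose.

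The share difference between tissues on chow, 0.79 percentage points, turned to -4.63 after thinning and -0.17 with at least 2 genes. Without single libraries it ran from -3.33 to 4.90, that on HFD from -7.58 to 7.92, diet in mesentery from -2.77 to 12.73, diet in adipose from 0.07 to 11.13 and the 4 pairs from 4.18 to 6.60. Log2 interactions turned without mesentery on HFD replicate B for Tpm2 (-3.95), Aspn (-3.76) and Myl9 (-6.10), after thinning for Myl9 (-0.87, -0.85 without the block) and without adipose on HFD replicate B for Cd74 (5.25). Over all libraries left out in turn they ran up to 7.2 for Aspn and down to -11.19 for Cd74. With members of mixed markers left out Myl9 was at -0.87. Gja4 against sprouting-type cells was at -0.03 after thinning. The cause was not tested.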
